A study of Mus musculus with 6 samples.

Results

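The RNA of tumor-associated macrophages (TAMs) was examined here for 32 genes of cholesterol synthesis, uptake and efflux, comprising targets of the SREBP2 transcription factor and genes of LXR signaling and cholesterol efflux. The members were chosen by name, and each symbol was matched to an Ensembl gene in the deposited table. All 32 were found among the 56980 genes listed, and all 32 passed the filter on low values and were tested. They comprise 19 enzymes of cholesterol synthesis (8 from acetyl-CoA to squalene and 11 from squalene to cholesterol), 4 genes of SREBP control, 4 of transport and storage, and 5 of LXR signaling and efflux.

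TAMs came from tumors of C57BL/6 mice (WT) and of C5aR-/- mice on the same background, which lack the receptor for complement C5a in every cell and not in macrophages alone. The mice were bought at an age of 6 to 8 weeks and were injected in the peritoneal cavity with ID8, a line of mouse ovarian cancer cells; injected mice were female. After 2 months, live CD45+CD11b+Ly6G-F4/80+ cells were sorted from the tumors. Both groups carried ID8 tumors. There were 3 libraries for each genotype. The study's legends for this RNA sequencing give more mice per group than there are libraries here. The labels do not say whether a library is 1 mouse or a pool, so p-values measure only the spread between these libraries. Levels are given as TPM, the abundance of a gene's transcripts per unit of length as a share of its library, which can be compared between genes. These values hold no read numbers, so sequencing depth is unknown here and counting error cannot be stated.

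Cells make cholesterol from acetyl-CoA through mevalonate, farnesyl diphosphate and squalene, and the last steps trim the first sterol, lanosterol, to cholesterol. When membranes run low in sterol, the escort protein SCAP carries SREBP2 from the endoplasmic reticulum to the Golgi, where it is cut and released to switch on these enzymes, and INSIG proteins hold it back when sterol is plentiful. Oxidized sterols activate the LXR receptors, which switch on the exporters ABCA1 and ABCG1. Macrophages take up much cholesterol with the cells and lipoproteins they engulf, and store the excess as cholesteryl ester in lipid droplets.

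The targeted gene and the composition of the libraries were examined first. The C5aR gene, C5ar1, measured 86.5, 37.3 and 16.2 TPM in WT TAM 1, 2 and 3 against 0.38, 0.11 and 0.05 TPM in C5aR-/- TAM 1, 2 and 3. The groups did not overlap, with every C5aR-/- library near 0. All 12 macrophage markers were detected and tested, and their summed TPM ranged from 2586 to 8959 in WT and from 2591 to 8897 in C5aR-/- libraries, highest in TAM 1 and lowest in TAM 3 of both genotypes. Transcripts of other cells were present as well. The summed TPM of 9 epithelial and ID8 tumor markers was 2029 to 2227 in WT and 1817 to 2354 in C5aR-/- libraries, and that of 6 mesothelial markers 1068 to 1448 and 766 to 1066.

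WT and C5aR-/- TAMs were compared on log2(TPM + 1) with limma over the 14776 genes that reached 1 TPM in 3 or more of the 6 libraries, and each difference is that of C5aR-/- minus WT. At low TPM this scale makes a change look smaller than it is. With the threshold at an adjusted p below 0.05 and a 2-fold change, 0 of the 32 members passed, against 0% of all genes tested, and the smallest adjusted p of any gene was 0.0666. With no threshold on the fold, 2 members had an unadjusted p under 0.05, against 14.4% of all genes (4 members without WT TAM 3 and 4 without C5aR-/- TAM 3). With the threshold at an unadjusted p below 0.05 and a 2-fold change (the unadjusted threshold from here on), 0 members were higher and 2 were lower in C5aR-/- TAMs, Msmo1 and Soat1, where 2.13% of all genes were higher and 2.84% lower. The groups did not overlap for 8 members, all lower in C5aR-/- TAMs, against 12.5% of all genes, and for 0 members in the higher direction, against 8.84%. The log2 difference was below 0 for 22 members, against 55.5% of all genes. The median log2 difference of the members was -0.13, and that of all genes tested was -0.05. Without WT TAM 3 the median of the members was -0.03.

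**Figure D1:**
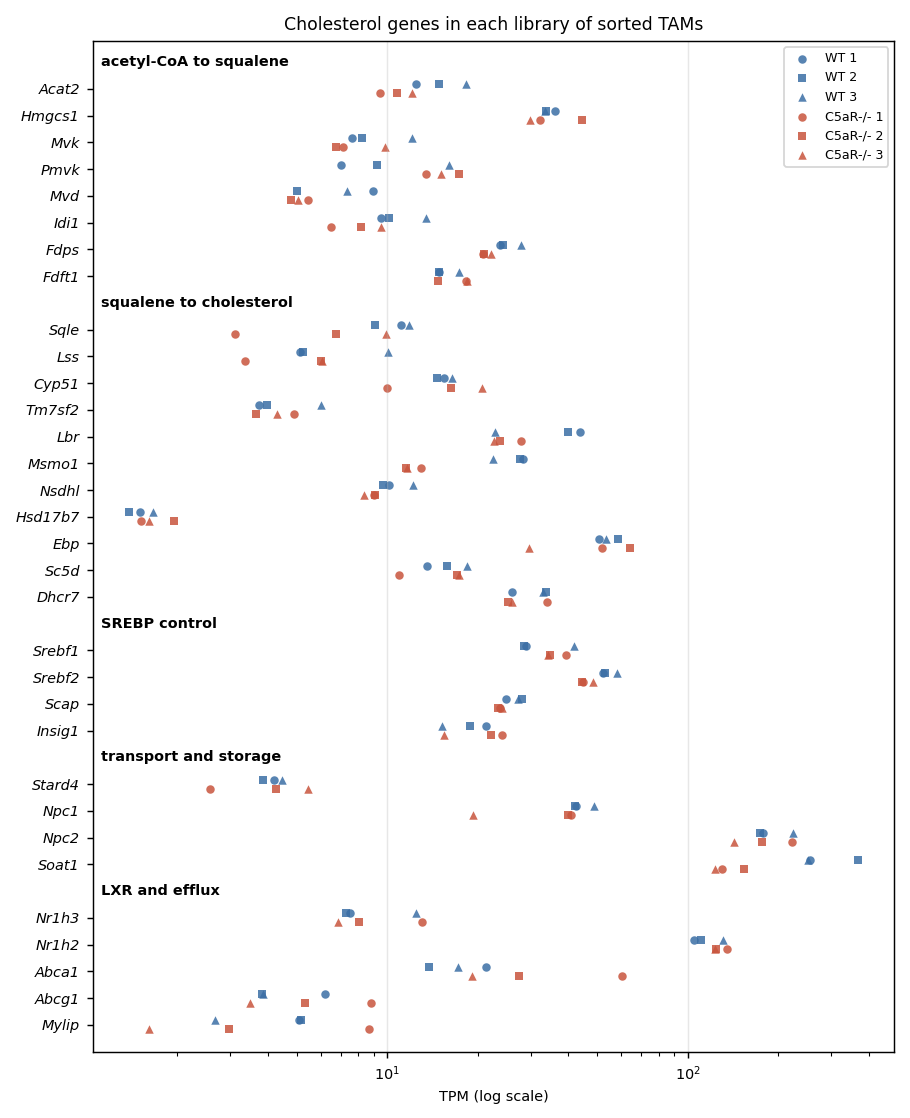
TPM (log scale, horizontal axis) of each of the 32 members (vertical axis, grouped by role) in the 3 WT libraries (blue) and the 3 C5aR-/- libraries (red), with a circle, square and triangle for TAM 1, 2 and 3. The C5aR-/- points of Msmo1 and Soat1 lie wholly to the left of the WT points, and those of Abca1 spread from 19.1 to 60.5.

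Levels differed widely among the members. Soat1 had the highest mean TPM of the members in WT TAMs, 291 ± 66.5 (SD, n = 3), followed by Npc2 with 192 ± 28.0 and Nr1h2 with 116 ± 13.7. Srebf2 (54.3 ± 3.31) and Ebp (54.1 ± 3.99) came next and did not differ beyond their spread. The lowest was Hsd17b7, a sterol ketoreductase, with 1.51 ± 0.14. Synthesis enzymes were otherwise between 4.57, the WT mean of Tm7sf2, and 54.1, that of Ebp. In C5aR-/- TAMs Npc2 was the most abundant member with 180 ± 39.6, ahead of Soat1 with 135 ± 15.8, whereas Nr1h2 had 127 ± 6.24.

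Soat1 (ENSMUSG00000026600, chr1:156428108-156474328 in GRCm38) encodes the acyltransferase of the endoplasmic reticulum that turns free cholesterol into cholesteryl ester for storage. Its TPM was 255, 368 and 251 in WT TAM 1, 2 and 3 and 130, 153 and 123 in C5aR-/- TAM 1, 2 and 3. Every C5aR-/- library was below every WT library, and WT TAM 2 stood above the other WT libraries. The log2 difference was -1.08 (standard error 0.19, unadjusted p = 0.00083, adjusted p = 0.0948 in limma), and the ratio of the mean TPM was 0.465. Without WT TAM 2 the log2 difference was -0.90, which is under a fold change of 2 (adjusted p = 0.346). In sorted bulk cells, fewer cells of a type and less RNA per cell cannot be told apart.

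Msmo1 (ENSMUSG00000031604, chr8:64718123-64733578 in GRCm38) encodes the methylsterol monooxygenase that starts the removal of the methyl groups at carbon 4 of the sterol ring. Its level was 28.2, 27.7 and 22.4 TPM in WT TAMs, against 13.0, 11.6 and 11.6 in C5aR-/- TAMs. The C5aR-/- libraries lay close together, all of them well below the lowest WT library. The log2 difference was -1.05 (standard error 0.16, unadjusted p = 0.00036, adjusted p = 0.0749), and the ratio of the mean TPM was 0.461. Without C5aR-/- TAM 1 the adjusted p was 0.0341 at a log2 difference of -1.10, so that Msmo1 passed the adjusted threshold, as 356 genes did in all. Without WT TAM 1 the log2 difference was -0.99, just under a fold change of 2. The summed TPM of neutrophil markers was lower in C5aR-/- libraries, at 630 to 2325 in WT and 31.2 to 394 in C5aR-/- TAMs. Within each genotype this sum and Soat1 were both highest in TAM 2, a comparison that was not planned. From C5aR-/- TAM 1 to TAM 3 the sum went from 216 to 31.2, and Soat1 from 130 to 123 TPM. Msmo1 was highest in TAM 1 of both genotypes. The part of neutrophils in the differences of Soat1 and Msmo1 was not tested.

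The promoters of both genes are shown because these were the members past the unadjusted threshold, beside that of Hmgcs1, a classical SREBP2 target that did not pass. Each runs 5′ to 3′ on the strand of the gene, from 250 bases before the transcript start to 50 bases from it on, in RefSeq's GRCm38.p6 (mm10). Capitals mark CCAAT, the core of the site bound by the SREBP partner NF-Y (ATTGG where it lies on the other strand), and in Hmgcs1 also 1 sterol regulatory element, written TCACNCCAC. No capitals of different motifs overlap.
Msmo1, chr8:64733529-64733828, minus strand: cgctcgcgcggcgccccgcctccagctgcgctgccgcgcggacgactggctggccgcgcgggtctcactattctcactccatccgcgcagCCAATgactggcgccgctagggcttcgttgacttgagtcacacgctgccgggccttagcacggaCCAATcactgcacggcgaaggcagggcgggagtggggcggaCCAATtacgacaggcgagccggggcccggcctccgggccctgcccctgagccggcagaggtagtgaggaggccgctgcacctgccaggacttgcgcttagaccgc
Soat1, chr1:156474279-156474578, minus strand: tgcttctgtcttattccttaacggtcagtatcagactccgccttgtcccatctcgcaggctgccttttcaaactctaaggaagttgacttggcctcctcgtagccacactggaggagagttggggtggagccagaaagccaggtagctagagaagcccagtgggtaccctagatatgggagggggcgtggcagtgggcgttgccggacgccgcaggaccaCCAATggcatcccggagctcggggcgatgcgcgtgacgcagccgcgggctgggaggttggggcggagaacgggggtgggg
Hmgcs1, chr13:119690101-119690400, plus strand: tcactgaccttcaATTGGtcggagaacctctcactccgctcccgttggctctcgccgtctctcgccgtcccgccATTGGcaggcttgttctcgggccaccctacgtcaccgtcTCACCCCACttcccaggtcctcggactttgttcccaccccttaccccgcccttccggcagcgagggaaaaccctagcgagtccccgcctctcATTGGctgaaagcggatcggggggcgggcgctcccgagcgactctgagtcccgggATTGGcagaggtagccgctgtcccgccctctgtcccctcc

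Msmo1 held 3 CCAAT boxes, Soat1 held 1 and Hmgcs1 held 4. Promoters on chromosome 18, where Npc1 and Stard4 lie, were left out of the search. Of the 32851 RefSeq promoters of this length that were searched on both strands, 37.4% held CCAAT, against 22 of 33 promoters of 26 members. The 32851 include those of the members. Besides Npc1 and Stard4, some members had no promoter in the set searched. Counted by gene, 21 of the 26 members held CCAAT. The sterol regulatory element in this spelling was in 1.24% of all promoters and in 1 of the 33, that of Hmgcs1. The GC box GGGCGG, a site of SP1, was in 35.7% of all and in 26 of the 33, and the E-box CACGTG, to which SREBPs can also bind, in 7.15% and in 7. These are matches of letters in a short window, and no measurement of binding was made.

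The 8 enzymes from acetyl-CoA to squalene showed small differences, with log2 values from -0.45 to 0.53 and a median of -0.22, and 5 of them were below 0. Acat2, the thiolase that joins acetyl-CoA units, measured 12.4, 14.9 and 18.2 TPM in WT and 9.41, 10.8 and 12.1 TPM in C5aR-/- TAMs. The highest C5aR-/- library was just below the lowest WT library (log2 difference -0.45, standard error 0.20, adjusted p = 0.366). Fdps, which makes farnesyl diphosphate, had 23.6, 24.2 and 27.7 in WT and 20.8, 20.9 and 22.03 in C5aR-/- TAMs. These groups did not overlap either (log2 difference -0.23, standard error 0.14, adjusted p = 0.482). Fdps shares 26.7% of its exon bases with the annotated gene Gm43738 on the same strand, so reads could be split between them.

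Hmgcs1, which forms HMG-CoA at the entry of the mevalonate pathway and whose promoter is printed above, did not differ beyond the spread between libraries. Its TPM was 36.0, 33.8 and 33.5 in WT and 32.3, 44.5 and 29.9 in C5aR-/- TAMs. The WT libraries lay within the range of the C5aR-/- libraries, of which TAM 2 was the highest (log2 difference 0.02, 95% confidence interval -0.40 to 0.45, adjusted p = 0.963). The sign turned to -0.14 without C5aR-/- TAM 2. Pmvk, phosphomevalonate kinase, had the highest log2 difference of the 19 enzymes, 0.53 (standard error 0.30, adjusted p = 0.458), with overlapping groups. Mvk and Mvd, the kinase and the decarboxylase on either side of it, had -0.20 and -0.38. Idi1, which isomerizes isopentenyl diphosphate, had -0.41, and Fdft1, which makes squalene, had 0.12. Fdft1 shares 18.3% of its exon bases with Ctsb, the gene of the lysosomal protease cathepsin B, on the opposite strand.

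Of the 11 enzymes from squalene to cholesterol, 10 had a log2 difference below 0, against 55.5% of all genes. Their median was -0.22, and only Msmo1 passed the unadjusted threshold. Without WT TAM 3, 7 were below 0 and the median was -0.07, and without C5aR-/- TAM 1, 8 were below 0. Sqle, the squalene monooxygenase that catalyzes a rate-limiting step, measured 11.1, 9.06 and 11.8 TPM in WT and 3.10, 6.74 and 9.91 TPM in C5aR-/- TAMs. C5aR-/- TAM 1 was far below every other library, while C5aR-/- TAM 3 lay within the WT range (log2 difference -0.72, standard error 0.37, adjusted p = 0.421). Without C5aR-/- TAM 3, Sqle passed the unadjusted threshold with a log2 difference of -1.04 (adjusted p = 0.318), and without C5aR-/- TAM 1 it was -0.33.

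Nsdhl and Hsd17b7 complete the removal of the carbon 4 methyl groups that Msmo1 begins. Nsdhl, the decarboxylating dehydrogenase, had 10.2, 9.63 and 12.2 in WT and 9.01, 9.06 and 8.33 in C5aR-/- TAMs. Its groups did not overlap, but the difference was small (log2 difference -0.24, standard error 0.17, adjusted p = 0.555). Hsd17b7 had a log2 difference of 0.10 (adjusted p = 0.870) at levels between 1.38 and 1.95 TPM.

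The remaining enzymes of the squalene branch had overlapping groups. Lss, which closes the ring to lanosterol, had a log2 difference of -0.32, and Cyp51, which removes the methyl group at carbon 14, had -0.04. The carbon 14 reductases Tm7sf2 and Lbr, the latter also a receptor of the nuclear lamina, had -0.06 and -0.46. Ebp, the sterol isomerase, had -0.22, with 29.6 TPM in C5aR-/- TAM 3 against 50.4 to 64.2 in the other libraries. Sc5d and Dhcr7, a desaturase and a reductase near the end of the pathway, had -0.09 and -0.12. The adjusted p of these 7 genes was between 0.459 and 0.961.

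Summed over the 19 enzymes, TPM was 329, 339 and 354 in WT TAMs and 282, 313 and 280 in C5aR-/- TAMs. The sums did not overlap, and the ratio of their means was 0.856. Msmo1 is part of them, with 28.2 TPM in WT TAM 1 and 11.6 TPM in C5aR-/- TAM 2. With Msmo1 taken out, the sum of C5aR-/- TAM 2 is above that of WT TAM 1, so the groups overlap. For the 11 enzymes from squalene on, the sums were 209, 219 and 208 in WT and 169, 185 and 158 in C5aR-/- libraries. Those of the 8 earlier enzymes overlapped, at 120 to 146 and 113 to 128. No member list was tested as a whole. The median log2 difference of the 19 enzymes, -0.22, was -0.07 without WT TAM 3.

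**Figure D2:**
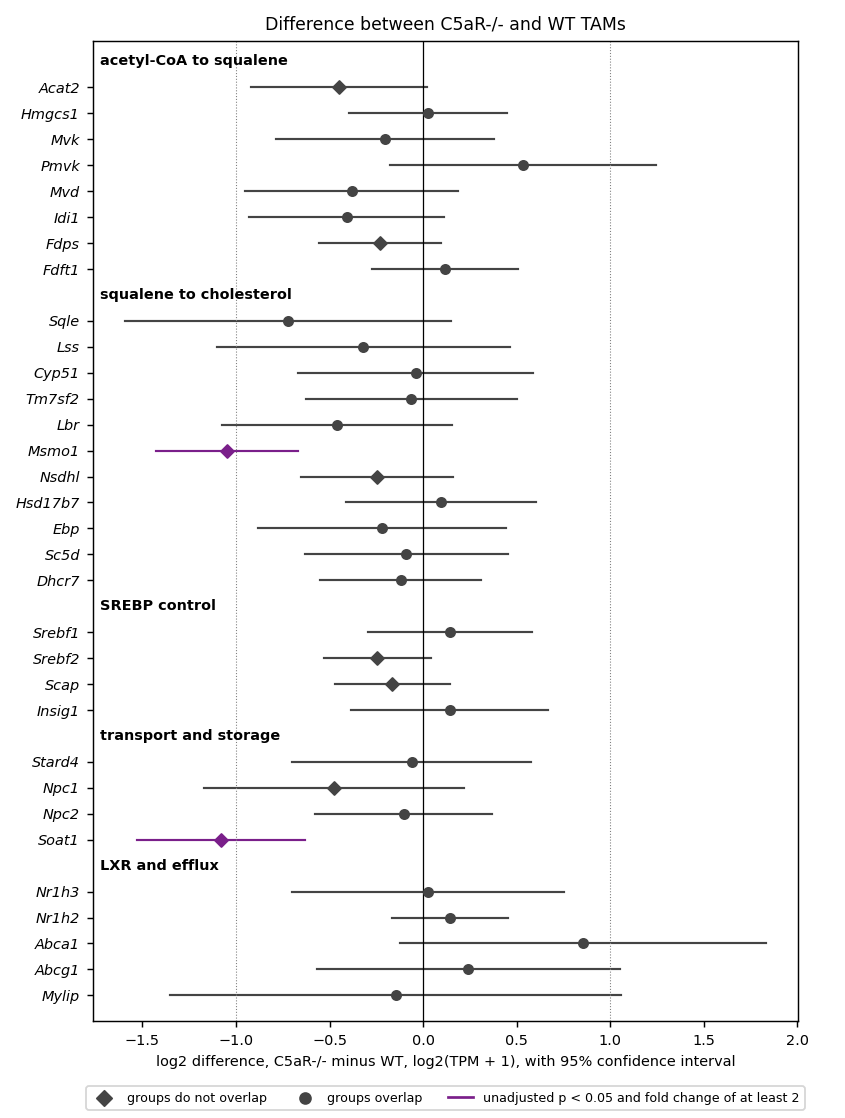
Log2 difference of each member, C5aR-/- minus WT on log2(TPM + 1) (horizontal axis), with its 95% confidence interval from limma; diamonds mark members whose groups do not overlap, and purple marks members past the unadjusted threshold. Of the 32 intervals, those of Msmo1 and Soat1 exclude 0, and the widest intervals, those of Mylip and Abca1, are in the LXR list.

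The 4 genes of SREBP control had log2 differences between -0.24 and 0.14. Srebf2, which encodes SREBP2 itself, measured 52.0, 52.9 and 58.1 TPM in WT and 44.6, 44.4 and 48.1 TPM in C5aR-/- TAMs. Every C5aR-/- library was below every WT library, by a small amount (log2 difference -0.24, standard error 0.12, unadjusted p = 0.0812, adjusted p = 0.405). Scap had 24.9, 28.1 and 27.3 in WT and 23.8, 23.4 and 24.1 in C5aR-/- TAMs. It too had groups without overlap (log2 difference -0.16, standard error 0.13, adjusted p = 0.603). Scap shares 13.2% of its exon bases with 5830462I19Rik on the opposite strand.

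Srebf1, which encodes the SREBP-1 proteins that favor fatty acid synthesis, had 28.8, 28.4 and 41.7 TPM in WT and 39.3, 34.7 and 34.1 in C5aR-/- TAMs. WT TAM 3 was above every C5aR-/- library and the other WT libraries were below them (log2 difference 0.14, 95% confidence interval -0.30 to 0.58, adjusted p = 0.762). Insig1, both a brake on SREBP transport and a target of SREBP2, had 21.3, 18.8 and 15.1 in WT and 24.1, 22.1 and 15.5 in C5aR-/- TAMs. The groups overlapped, with TAM 3 lowest in both (log2 difference 0.14, 95% confidence interval -0.38 to 0.67, adjusted p = 0.808). The 4 genes had 2 log2 differences on each side of 0, and their median of -0.01 turned to 0.01 with quantile normalization and to 0.04 with median-of-ratios scaling.

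All 4 genes of transport and storage had a log2 difference below 0 (3 with quantile normalization), with a median of -0.29, and Soat1 was the only 1 past the unadjusted threshold. Npc1, the lysosomal membrane protein that exports cholesterol taken up with lipoproteins, measured 42.4, 42.2 and 48.7 TPM in WT and 40.7, 39.8 and 19.3 TPM in C5aR-/- TAMs. The groups did not overlap, but C5aR-/- TAM 1 and 2 were just under the WT libraries and C5aR-/- TAM 3 alone was far lower (log2 difference -0.48, standard error 0.29, adjusted p = 0.504). Without C5aR-/- TAM 3 its log2 difference was -0.14. Npc2, the soluble protein that hands cholesterol to Npc1, had -0.10 with TPM from 142 to 224 over all libraries, and Stard4, a cytosolic sterol carrier, had -0.06. Summed TPM of the 4 genes was 480, 587 and 529 in WT and 395, 374 and 290 in C5aR-/- TAMs, most of it from Soat1 and Npc2.

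The genes of LXR signaling and efflux had a median log2 difference of 0.14, 4 of the 5 above 0, and none passed a threshold. Without C5aR-/- TAM 1, 3 of the 5 were below 0. Abca1, which exports cholesterol from the plasma membrane, measured 21.2, 13.8 and 17.1 TPM in WT and 60.5, 27.4 and 19.1 TPM in C5aR-/- TAMs. C5aR-/- TAM 1 and 2 were above all WT libraries and C5aR-/- TAM 3 was within the WT range (log2 difference 0.85, standard error 0.41, unadjusted p = 0.0775, adjusted p = 0.399). The mean of C5aR-/- TAMs was 35.7 ± 21.9 (SD, n = 3) and that of WT TAMs 17.4 ± 3.73. Without C5aR-/- TAM 3 the log2 difference was 1.21, past the unadjusted threshold (unadjusted p = 0.0169, adjusted p = 0.316), and without C5aR-/- TAM 1 it was 0.40.

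Abcg1, the other exporter of this list, had 6.21, 3.82 and 3.86 TPM in WT and 8.79, 5.33 and 3.50 in C5aR-/- TAMs. The groups overlapped, with the lowest and the highest value both in C5aR-/- libraries (log2 difference 0.24, standard error 0.34, adjusted p = 0.783), and the difference was -0.05 without C5aR-/- TAM 1. Nr1h3, which encodes LXRα, had 7.50, 7.30 and 12.4 in WT and 13.1, 8.01 and 6.86 in C5aR-/- TAMs. One library of each group was high, WT TAM 3 and C5aR-/- TAM 1 (log2 difference 0.03, standard error 0.30, adjusted p = 0.978), and the sign turned when WT TAM 1, WT TAM 2 or C5aR-/- TAM 1 was left out, with values down to -0.22. Nr1h2, which encodes the widely expressed LXRβ, had 105, 111 and 131 in WT and 135, 124 and 124 in C5aR-/- TAMs. It was the steadiest gene of this list (log2 difference 0.14, standard error 0.13, adjusted p = 0.658). Mylip encodes the LXR-induced ubiquitin ligase IDOL, which marks lipoprotein receptors for breakdown, and it ranged from 1.61 to 8.70 TPM within the C5aR-/- libraries (log2 difference -0.15, standard error 0.51, adjusted p = 0.920).

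Within the C5aR-/- group, all 5 LXR and efflux members were highest in TAM 1 and lowest in TAM 3, an order noticed after the values were seen. This order held for 10 of the 32 members, for 28.6% of all genes tested and for 12 of the 12 macrophage markers. Among the 19 synthesis enzymes it held for 1. In WT TAMs the summed macrophage markers also fell from TAM 1 to TAM 3, but Nr1h3 and Nr1h2 were highest in TAM 3. Abca1 and Abcg1 were lowest in WT TAM 2, and Mylip was highest there. The highest C5aR-/- library exceeded the lowest by a median of 2.51-fold over the LXR members, 1.34-fold over the synthesis enzymes, 3.10-fold over the macrophage markers and 1.56-fold over all genes. The part of the macrophage markers in the LXR values was not tested. Without C5aR-/- TAM 1 the median log2 difference of the 5 LXR members was -0.05.

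**Figure D3:**
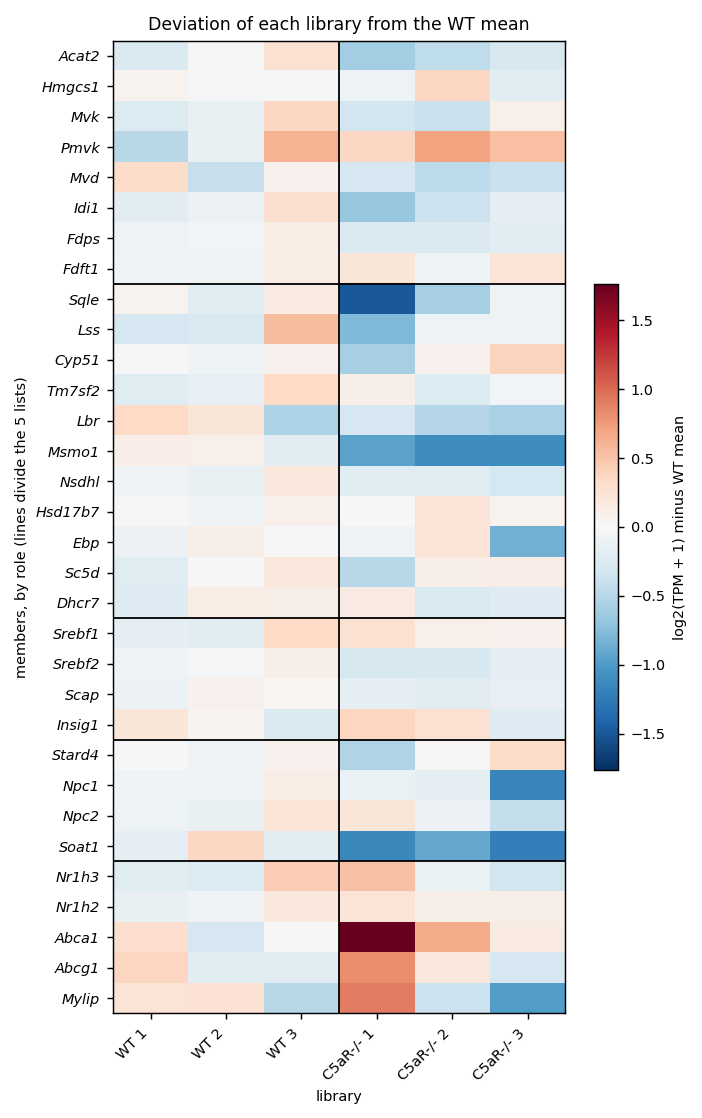
Deviation of log2(TPM + 1) from the WT mean (color, red above and blue below) for each member (rows, by role) in each library (columns). Soat1 and Msmo1 are blue in all 3 C5aR-/- libraries, whereas Abca1, Abcg1 and Mylip go from red in C5aR-/- TAM 1 toward lower values in C5aR-/- TAM 3.

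Other genes of the same pathways were examined as lists. Of 65 genes listed, 64 were found and 62 tested, and 2 passed the unadjusted threshold as lower and 0 as higher, beside 2.84% and 2.13% of all genes. The log2 difference was below 0 for 38, beside 55.5% of all genes, and above 0 for 24. The median of these genes was -0.13, beside -0.05 for all genes. Of 7 further synthesis enzymes and partners, 0 passed the unadjusted threshold, and the median log2 difference was -0.10. The lowest was Erg28, a scaffold of the enzymes of carbon 4 demethylation, the stage that Msmo1 begins. It had 23.9, 27.9 and 29.3 in WT and 14.9, 19.0 and 10.8 in C5aR-/- TAMs. The groups did not overlap, although the difference was under a fold change of 2 (log2 difference -0.84, standard error 0.22, unadjusted p = 0.00722, adjusted p = 0.186). The highest was Cyb5r3, a reductase that passes electrons to sterol oxidases through cytochrome b5, with a log2 difference of 0.21 (adjusted p = 0.601).

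Of 12 tested genes of further SREBP control, 0 passed the unadjusted threshold, and the median log2 difference was -0.04. The lowest was Nfya, a subunit of NF-Y, which binds CCAAT, with 37.3, 42.5 and 39.6 TPM in WT and 28.6, 34.8 and 31.2 in C5aR-/- TAMs. Its groups did not overlap, although the difference was under a fold change of 2 (log2 difference -0.33, standard error 0.14, unadjusted p = 0.0473, adjusted p = 0.340). The NF-Y subunits Nfyb and Nfyc had log2 differences of 0.03 and 0.05, with overlapping groups. The highest was Rnf145, a sterol-responsive ubiquitin ligase, with a log2 difference of 0.25 (adjusted p = 0.709).

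Of 15 fatty acid targets of SREBP-1, 10 were below 0, against 55.5% of all genes, and the median log2 difference was -0.18. As lower, 1 passed the unadjusted threshold, against 2.84% of all genes. At any fold, 2 higher and 2 lower genes had an unadjusted p under 0.05 in limma, against 14.4% of all genes. Groups did not overlap for 2 as higher and 2 as lower, against 8.84% and 12.5%. Me1, the cytosolic malic enzyme that supplies NADPH, had 182, 210 and 232 TPM in WT and 166, 98.0 and 56.9 in C5aR-/- TAMs. The groups did not overlap, C5aR-/- TAM 1 being close to the WT libraries and TAM 3 far below (log2 difference -1.08, standard error 0.36, unadjusted p = 0.0222, adjusted p = 0.269).

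Among further LXR partners and targets, 10 of 12 were tested, the median log2 difference was 0.10, and 0 passed. The highest was Rxra, the partner of LXR in its dimer, with 0.44 (adjusted p = 0.446), and the lowest was Lpl, lipoprotein lipase, with -0.83 (adjusted p = 0.421). The groups overlapped for both.

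In the list of 18 genes of further uptake, transport and storage, 13 were below 0, against 55.5% of all genes. The median log2 difference was -0.21, and 1 passed as lower, against 2.84% of all genes. Olr1, a scavenger receptor for oxidized lipoprotein, had 25.02, 12.0 and 6.66 TPM in WT and 3.80, 3.67 and 3.83 in C5aR-/- TAMs. The WT libraries differed among themselves and all lay above the C5aR-/- libraries (log2 difference -1.53, standard error 0.43, unadjusted p = 0.00971, adjusted p = 0.209). Lipa, the lysosomal acid lipase that frees cholesterol from engulfed esters, was chosen after its values were seen and went the other way. It had 39.0, 29.1 and 24.7 in WT and 97.7, 54.6 and 42.1 in C5aR-/- TAMs, without overlap (log2 difference 0.98, standard error 0.33, unadjusted p = 0.0216, adjusted p = 0.266). Its order within each group was that of the summed macrophage markers.

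**Figure D4:**
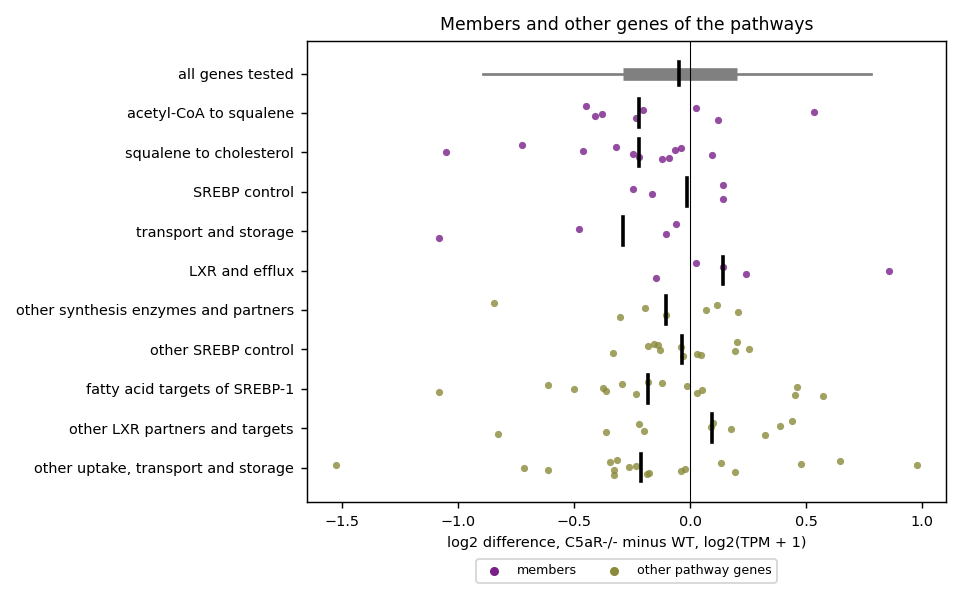
Log2 difference, C5aR-/- minus WT on log2(TPM + 1) (horizontal axis), of the members (purple points) and of the other pathway genes (olive points) by list, with a black tick at each median; the gray bar shows all 14776 genes tested, thick from the 25th to the 75th percentile (-0.29 to 0.20) and thin from the 5th to the 95th (-0.89 to 0.78). The list medians lie between -0.29 and 0.14, and Olr1 is the point farthest to the left.

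Markers of other cells moved with the groups in the same libraries. Over all genes tested, 12.5% were lower without overlap and 8.84% were higher without overlap. Of 6 tested neutrophil markers, 4 had lower groups without overlap, and the summed TPM of the list was 630 to 2325 in WT and 31.2 to 394 in C5aR-/- libraries, with Ly6g at 0 in C5aR-/- TAM 1 and 3. Of 7 tested mast cell markers, 5 were lower without overlap, and Mcpt4 and Fcer1a were at 0 in C5aR-/- TAM 2 and 3. The sums of the list were 86.8 to 141 in WT and 61.6 to 90.5 in C5aR-/- libraries. Kit was higher, at 28.9 to 33.1 TPM in WT and 54.65 to 85.4 in C5aR-/- libraries, and made up most of the C5aR-/- sums. Of 8 markers of large peritoneal macrophages, the resident cells of the cavity in which ID8 tumors grow, 3 (Icam2, Timd4 and Prg4) were lower without overlap, with sums of 241 to 1551 and 102 to 233, so that the sums all but met. Of these 8 markers, 7 had a log2 difference below 0, against 55.5% of all genes, and their median was -1.75. The unadjusted threshold was passed by 4 as lower, against 2.84% of all genes. Gata6, which defines large peritoneal macrophages, had a log2 difference of -0.16 and Cd163 one of 1.21, both with overlapping groups. Of 6 mesothelial markers, 4 were lower without overlap, and Msln was higher. The part of these cells in the differences of Soat1, Msmo1, Me1 and Olr1 was not tested.

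The epithelial and ID8 markers overlapped in their sums, but single genes of the list went both ways. Muc16, which encodes the mucin CA125, was 142 to 148 TPM in WT and 10.2 to 39.2 in C5aR-/- libraries and was past the unadjusted threshold as lower. Cldn3, a claudin, was 38.5 to 48.6 and 102 to 138 and was past it as higher. Krt8, a keratin, had higher groups without overlap, at 455 to 465 and 624 to 758, under a fold change of 2, and the other 5 tested genes of the list overlapped. Krt8, Krt18 and Krt19 lay between 433 and 1102 TPM over all libraries. The part of tumor and other epithelial cells in the values of the members was not tested. Of 8 proliferation genes, 7 had a log2 difference above 0, where 55.5% of all genes tested were below 0. Higher groups without overlap were found for 3 of the 8, against 8.84% of all genes. The sums of this list were 561 to 593 in WT and 591 to 852 in C5aR-/- libraries. The fibroblast, T cell and B cell lists had overlapping sums, of 404 to 605 and 439 to 557, 52.5 to 102 and 23.1 to 69.9, and 33.7 to 166 and 9.16 to 168.

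**Figure D5:**
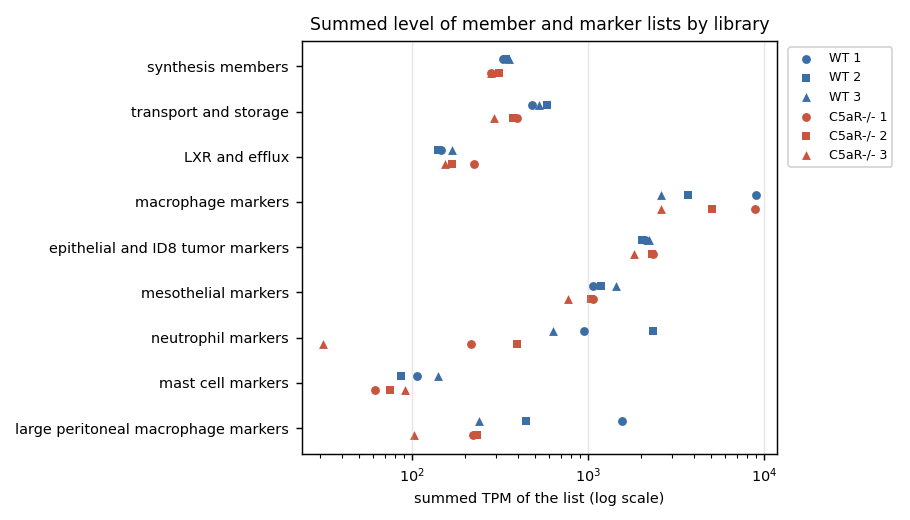
Summed TPM (log scale, horizontal axis) of 3 member lists and 6 marker lists (vertical axis) in each library, WT in blue and C5aR-/- in red, with a circle, square and triangle for TAM 1, 2 and 3. The synthesis enzymes stay between 280 and 354 in all libraries, whereas the macrophage markers run from 2586 to 8959 and the neutrophil markers from 31.2 to 2325.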

How the data were processed

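RNA of sorted TAMs was measured in 3 WT and 3 C5aR-/- libraries, grouped by the sample labels. According to the methods and the submitters' processing notes, the authors used fastp for trimming, HISAT2 for alignment, and StringTie and gffcompare for transcript assembly; the notes also name RSEM, DESeq2 and the build mm10, and versions are not given in the sources used here. The methods name FPKM, but the authors deposited TPM, which sum to 1000000 in each library. The 2 columns of the authors' group means equal the means of the libraries and were not used. TPM allows no count test.

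Symbols came from GENCODE M21 (GRCm38, the same assembly as mm10), which matched 52073 of 56980 genes, and the ID of highest mean TPM stood for a symbol with several IDs. Marchf6 and Erg28 were matched by older symbols, and Spring1 had no match. Exons of 12 of the 32 members overlap another annotated gene, 9 of them on the opposite strand, and the strand setting of the counting is not stated.

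Tests used limma 3.58.1 in R 4.3.3 (lmFit, eBayes with trend) on log2(TPM + 1) over genes reaching 1 TPM in 3 or more libraries, with Benjamini-Hochberg adjustment over all 14776 genes, and were tested on simulated data. Tables and figures were made with Python 3.11.15, pandas 2.3.3, numpy 2.4.6 and matplotlib 3.10.9. Both thresholds on p are stated in the study's methods.

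All 32 members are named. Values of every library are given for members past the unadjusted threshold, for those whose groups do not overlap, and for 9 genes central to the pathway (Srebf1, Srebf2, Nr1h3, Nr1h2, Abca1, Abcg1, Insig1, Hmgcs1 and Sqle). Of each other pathway list, the genes past the unadjusted threshold are named, or otherwise the highest and the lowest. Lipa, Nfyb and Nfyc are named besides. 1 listed gene is not reported here and was left out of the counts of its list. Members and lists were chosen with earlier results of these data known. The alternatives tried were 0.1 as the pseudocount, no filter or one at 5 TPM, quantile normalization, median-of-ratios scaling, eBayes without trend, the replicate number as a block, and leaving out each library. Deviations of same-numbered libraries from their group means correlated at 0.186, -0.011 and 0.272, so the numbers were not taken to pair the libraries.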

Additional observations from a re-analysis of the deposited data

How the results depend on the processing

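With 0.1 as the pseudocount, without a filter, with a filter at 5 TPM (11177 genes and 29 members tested), quantile normalization, median-of-ratios scaling (14734 genes) and eBayes without trend, the members past the adjusted and the unadjusted threshold stayed at the counts given, the medians of the synthesis and LXR members kept their sign, and every member named with its library values kept its direction and its side of the unadjusted threshold. The median of the 4 genes of SREBP control turned from -0.011 to 0.014 with quantile normalization and to 0.037 with median-of-ratios scaling, and that of transport and storage was -0.48 with the filter at 5 TPM, which left 3 of its genes. From 20 to 22 members were below 0 in these fits, and without a filter Srebf2 joined the members with an unadjusted p under 0.05 (adjusted p = 0.505 in limma). These added counts and medians were recomputed after seeing the data. The count of members without overlap was recomputed under the filter of 5 TPM and with libraries left out only. The adjusted p of Msmo1 ranged from 0.0341 to 0.411 over all alternatives and that of Soat1 from 0.0648 to 0.346. With the replicate number as a block, Soat1 had an adjusted p of 0.109 and Msmo1 of 0.128 at log2 differences of -1.08 and -1.05, the members past the unadjusted threshold stayed at 2 lower and 0 higher, and those with an unadjusted p under 0.05 at any fold went from 2 to 4, adding Abca1 and Acat2 (limma, adjusted p = 0.286 and 0.314).

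With each library left out in turn, which leaves 2 against 3, the members past the adjusted threshold ranged from 0 to 1, those past the unadjusted threshold from 1 to 3 lower and from 0 to 1 higher, and those without overlap from 9 to 13, a count that smaller groups make larger. The count of 1 lower arose without WT TAM 1 and without WT TAM 2, the 1 higher (Abca1) without C5aR-/- TAM 3, and 13 without WT TAM 3 and without C5aR-/- TAM 3. Members with an unadjusted p under 0.05 at any fold ranged from 2 to 4, members below 0 from 18 to 23, and LXR members below 0 from 0 to 3. The median log2 difference ranged from -0.20 to -0.029 (without WT TAM 3) for all members, from -0.077 to 0.0028 (without C5aR-/- TAM 3) for SREBP control, from -0.27 to -0.069 (without WT TAM 3) for the synthesis enzymes and from -0.051 (without C5aR-/- TAM 1) to 0.27 for the LXR members. Signs turned for Nr1h3 (-0.22 to 0.25), Abcg1 (-0.051 to 0.51) and Hmgcs1 (-0.14 to 0.13). TPM gives no depth, so the precision of low members such as Hsd17b7 cannot be given.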
